A study of Mus musculus with 6 samples.

Results

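A set of 8 genes of tendon, cartilage and related matrix was followed in 6 tumors of the mouse hepatoma line Hepa1-6: Comp, Itgbl1, Cpxm2, Tnmd, Thbs4, Cilp, Chad and Scx. They were taken as all non-control probes whose printed gene name was one of these 8 symbols, which gave 11 probes of the 41174 on the array and 8 of its 27573 gene names. The choice of genes was made with earlier values of the same tumors in view. Their levels and differences are therefore given as a description, and calls from the fits over all genes are given as counts from which nothing is read. The tumors had grown under the skin of female C57Bl/6 mice and were removed 15 days (tumors 303, 313 and 318) or 10 days (tumors 302, 307 and 312) after the cells were placed. Tumor RNA carried the dye Cy5 on every array. The reference, labelled as total RNA of blood from an untreated female C57Bl/6 mouse, carried Cy3. The dyes were never exchanged, and any preference of a probe for a dye remains part of its ratio. The line and the host are both mouse, so a transcript cannot be assigned to tumor cells or to host cells within the tumor. The age of the mice, and whether each tumor came from its own mouse, are not given in the sources used here.

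Tendon and cartilage are built by cells that lay down collagen and the proteins that order it. Scx encodes scleraxis, the basic helix-loop-helix transcription factor of tendon progenitors, and Tnmd encodes tenomodulin, a membrane protein of tendon cells and a known target of scleraxis. Comp (cartilage oligomeric matrix protein) and Thbs4 encode thrombospondins that assemble into pentamers and bind collagen. Cilp encodes a cartilage intermediate layer protein that binds TGF-beta, and Chad encodes chondroadherin, a leucine-rich repeat protein of cartilage. Itgbl1 encodes a secreted protein with the repeats of integrin beta chains, and Cpxm2 encodes a carboxypeptidase-like protein without known enzyme activity.

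The promoters of Itgbl1 and Cpxm2, whose ratios were higher in every day 15 tumor than in every day 10 tumor, are shown with that of Tnmd, the scleraxis target that was not detected. Of the 8 genes, 6 had an entry in the RefSeq promoter table, which holds 250 bases before and 50 bases after a gene's start. Capitals mark E-boxes, the letters CANNTG read on both strands, the class of site that basic helix-loop-helix factors bind.
Itgbl1, GRCm38.p6 chr14:123659890-123660189, plus strand: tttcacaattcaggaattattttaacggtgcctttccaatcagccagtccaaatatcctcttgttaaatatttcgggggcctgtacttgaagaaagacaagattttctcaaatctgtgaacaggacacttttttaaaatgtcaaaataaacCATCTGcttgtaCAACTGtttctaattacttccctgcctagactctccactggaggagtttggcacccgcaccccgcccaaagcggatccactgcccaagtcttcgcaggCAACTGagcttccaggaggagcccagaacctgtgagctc
Cpxm2, GRCm38.p6 chr7:132154692-132154991, minus strand: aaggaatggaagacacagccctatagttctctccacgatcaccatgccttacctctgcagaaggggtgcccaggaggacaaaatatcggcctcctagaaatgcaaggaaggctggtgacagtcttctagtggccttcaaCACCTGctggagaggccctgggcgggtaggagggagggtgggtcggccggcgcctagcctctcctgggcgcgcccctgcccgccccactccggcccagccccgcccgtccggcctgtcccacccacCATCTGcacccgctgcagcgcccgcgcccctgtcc
Tnmd, GRCm38.p6 chrX:133850758-133851057, plus strand: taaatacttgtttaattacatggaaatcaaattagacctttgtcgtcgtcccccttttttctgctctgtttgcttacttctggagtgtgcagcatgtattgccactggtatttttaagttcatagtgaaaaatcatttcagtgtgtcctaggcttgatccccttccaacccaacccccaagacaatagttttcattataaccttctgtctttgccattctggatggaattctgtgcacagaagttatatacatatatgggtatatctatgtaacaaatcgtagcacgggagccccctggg
The window of Itgbl1 held 3 E-boxes and that of Cpxm2 held 2. Thbs4 had 2, Cilp 3 and Chad 1. The window of Tnmd held 0, which says only that these letters are absent from it. Of all 32851 windows of this length, 72.3% held at least 1 E-box, with a median of 1, so these counts do not set the genes apart. The letters AACAAT, a core of SOX sites, were found on either strand in 0 of the 6 windows and in 10.7% of all windows. A match of letters is a description and no evidence of binding.

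Per array, Cy5 was well above background at 52.4% to 58.5% of non-control spots and Cy3 at 47.5% to 52.8%. Across probes, the correlation of log2 ratios between arrays was 0.845 to 0.978. All day 15 arrays lay on 1 slide and all day 10 arrays on another, so slide and day cannot be told apart. Of 10 hepatocyte and hepatoma markers, the median log2 ratio was -1.56 in day 15 tumor 313 and 2.24 to 3.45 in the other tumors. Of 8 blood cell markers, 7 were tested and all 7 were higher in tumor than in the reference labelled blood, and S100a8 and Ptprc were not well above background in that channel on any array. Of the hepatocyte and hepatoma markers, Alb, Afp, Ambp, Gpc3, Krt8, Krt18 and Foxa2 were well above background in that channel on all 6 arrays. F2 was so on 5, Apoa1 on 1 and Ttr on 0. Whether the reference held the RNA its label names was not tested. On the array of tumor 312, signal was lost over an area that held 11.9% of spots, and none of the 11 probes lay inside it.

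The tendon and cartilage label of the set was not borne out by all of its genes. Tnmd was not well above background in Cy5 on any of the 6 arrays, and Chad was on 1 array, that of tumor 312. Scx was well above background in both dyes on all arrays, and was lower in every tumor than in the reference. Comp, Itgbl1, Cpxm2, Thbs4 and Cilp gave signal in the tumors. Of these, all but Thbs4 had higher log2 ratios in every day 15 tumor than in every day 10 tumor, Cilp by a margin of 3.55 against 3.53. In bulk tissue, fewer cells of a type and less RNA per cell cannot be told apart. The plot of log2 ratios by tumor shows each gene.

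**Figure D1:**
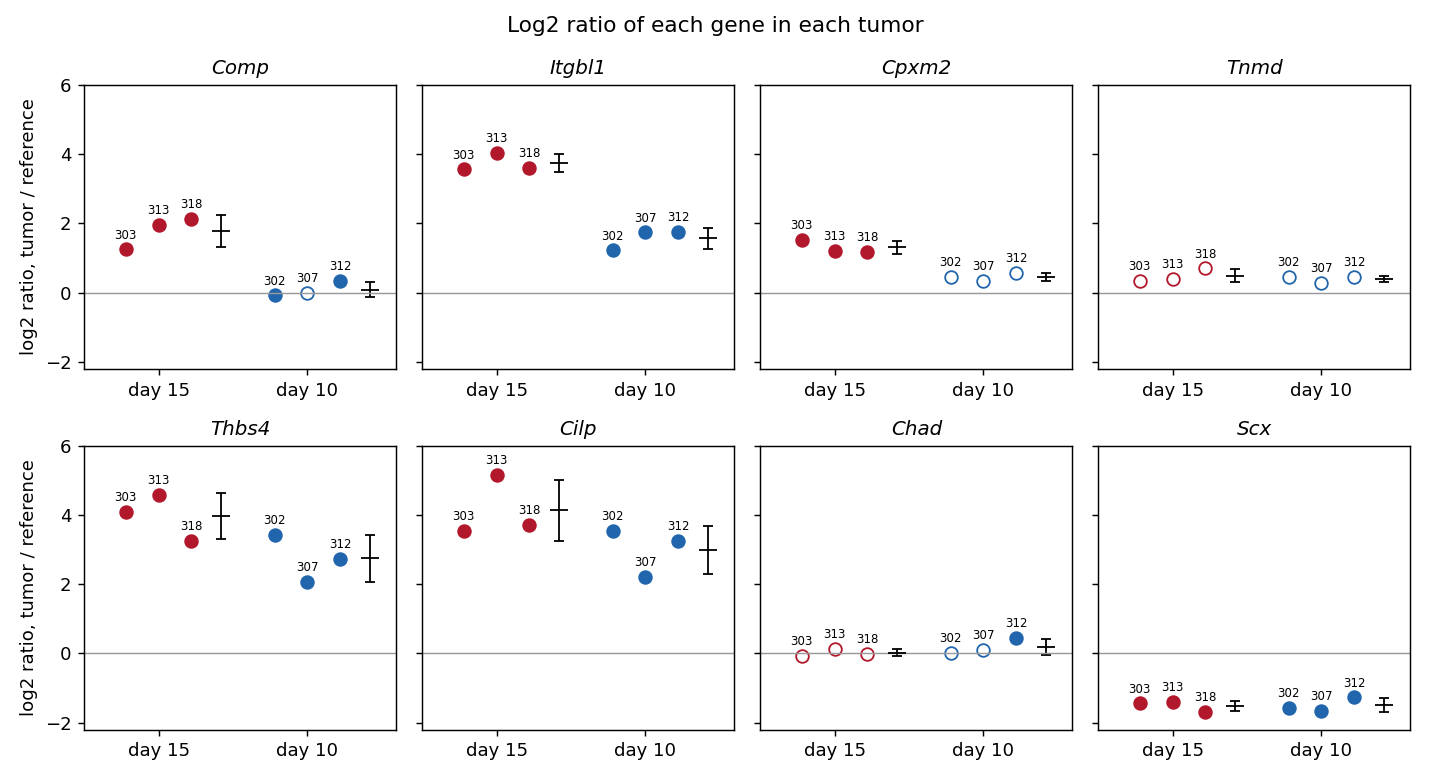
Log2 ratio of tumor over reference (vertical axis) for each of the 8 genes in each tumor, day 15 in red and day 10 in blue, with tumor numbers. Filled points were well above background in Cy5, open points were not, and bars give the mean and SD of 3 tumors. Itgbl1 lay between 3.56 and 4.04 at day 15 and between 1.22 and 1.75 at day 10, while Scx stayed between -1.68 and -1.27 in all tumors.

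Itgbl1 showed the largest difference between the days among the 8 genes. Its log2 ratio was 3.56, 4.04 and 3.61 in day 15 tumors 303, 313 and 318, against 1.22, 1.74 and 1.75 in day 10 tumors 302, 307 and 312. The days did not overlap, and the lowest day 15 tumor stood well above the highest day 10 tumor. The means were 3.74 ± 0.26 at day 15 and 1.57 ± 0.30 at day 10 (SD, n = 3 each), a difference of 2.17 (SE 0.22). Of all genes tested, 0.146% had a larger rise. The processed Cy5 signals, in scanner units, were 566, 902 and 597 in the day 15 tumors and 93.6, 138 and 133 in the day 10 tumors. The reference channel was not well above background for Itgbl1 on any array. Its Cy3 signal on a log2 scale stayed within a range of 0.21 over the arrays, so the difference lay in the tumor channel.

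Comp had log2 ratios of 1.25, 1.96 and 2.14 in day 15 tumors 303, 313 and 318, against -0.08, 0.00 and 0.34 in day 10 tumors 302, 307 and 312. At day 15 all tumors lay above those of day 10. The means were 1.78 ± 0.47 at day 15 and 0.09 ± 0.23 at day 10 (SD, n = 3 each), a difference of 1.69 (SE 0.27). Processed Cy5 signals were 137, 283 and 278 at day 15 and 44.3, 29.1 and 66.6 at day 10. Comp was well above background in Cy5 in all 3 day 15 tumors and in 2 day 10 tumors, and tumor 307 was the one without. In Cy3 it was well above background on 1 array, that of tumor 313, and its Cy3 signal differed between the slides by 0.03 on the log2 scale.

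Cpxm2 was read by 3 probes. With the probe that stood for the gene, the log2 ratios were 1.53, 1.20 and 1.19 in day 15 tumors 303, 313 and 318, against 0.45, 0.35 and 0.57 in day 10 tumors 302, 307 and 312. This probe was well above background in Cy5 in all 3 day 15 tumors and in 0 day 10 tumors, so it passed the filter on dim probes only through the day on which it was high. In Cy5 signal, Cpxm2 was at least 1.71-fold higher at day 15 with this probe and at least 1.78-fold higher with a second probe of the same transcript. For such a bound the dim group is given, on each array, the lowest signal found among probes well above background, or the probe's measured signal where that is larger. The means of the log2 ratio were 1.31 ± 0.19 at day 15 and 0.45 ± 0.11 at day 10 (SD, n = 3 each), a difference of 0.85 (SE 0.16). The difference was 0.72 with no background correction and 2.0 in the signals processed by the scanner software, which differ in several steps at once. The third probe, designed to a separate cDNA clone, was not well above background on any array, so the probes of Cpxm2 did not agree.

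Thbs4 was high against the reference at both days and overlapped between them. Its log2 ratio was 4.08, 4.59 and 3.26 in day 15 tumors 303, 313 and 318, against 3.43, 2.07 and 2.74 in day 10 tumors 302, 307 and 312. Day 15 tumor 318 lay below day 10 tumor 302. The means were 3.98 ± 0.67 at day 15 and 2.75 ± 0.68 at day 10 (SD, n = 3 each), a difference of 1.23 (SE 0.45) that was 0.81 after median centring without loess. A second Thbs4 probe was dimmer, with means of 1.52 at day 15 and 1.02 at day 10, a difference of 0.51 (SE 0.28). The days overlapped with this probe as well.

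Cilp had the widest range of Cy5 signal of the 8 genes, 4.40 on the log2 scale. Processed Cy5 signals were 656, 6450 and 1150 in day 15 tumors 303, 313 and 318, against 1250, 199 and 744 in day 10 tumors 302, 307 and 312. The days overlapped in this channel, and tumor 313 alone stood above the rest. The log2 ratios were 3.55, 5.15 and 3.72 at day 15 and 3.53, 2.21 and 3.24 at day 10, so they did not overlap but tumors 303 and 302 were nearly equal. The means were 4.14 ± 0.88 at day 15 and 2.99 ± 0.69 at day 10 (SD, n = 3 each), a difference of 1.15 (SE 0.52). It was 0.64 without tumor 313, 0.76 without tumor 307, 0.61 after median centring and 0.47 in the scanner's processed signals.

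The reference channel of Cilp was not steady. Its processed Cy3 signals were 30.3, 191 and 70.2 on the arrays of day 15 tumors 303, 313 and 318, against 111, 10.7 and 34.6 on those of day 10 tumors 302, 307 and 312. On all 6 arrays the order of the Cy3 signals was that of the Cy5 signals, with tumor 313 highest and tumor 307 lowest. Log2 Cy3 signals ranged over 2.07 and differed by 0.61 between the slides. The Cy3 signal was well above background on 3 of the 6 arrays, those of tumors 313, 318 and 302. Over the 20923 probes well above background in Cy3 on at least 3 arrays, the median range was 0.67 and the 95th percentile 3.65. Cilp was above this median and below this percentile. No percentile was taken without the area of lost signal of tumor 312, which held 11.9% of spots and can widen such ranges. Whether the range of Cilp was unusual is therefore not decided. The part of the reference channel in the ratio was not tested. The plot of both dyes by array shows this beside the other genes.

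**Figure D2:**
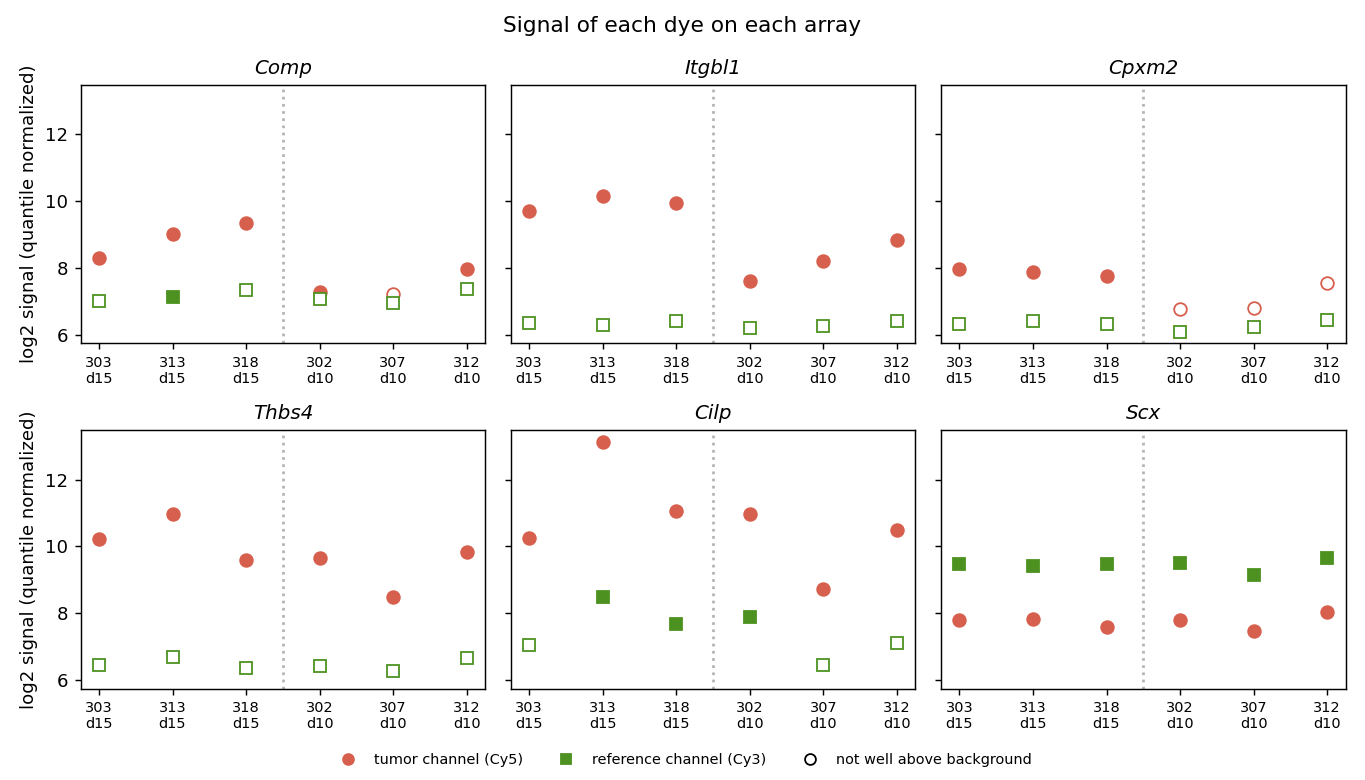
Quantile normalized log2 signal (vertical axis) of the tumor channel (red circles) and the reference channel (green squares) on each array, day 15 tumors left of the dotted line and day 10 tumors right of it. Open marks were not well above background. For Cilp both dyes moved together, for Itgbl1 and Comp the reference channel stayed within 0.21 and 0.42, and for Scx the reference channel was the brighter on every array.

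Scx had nearly the same mean at both days and was the one gene of the 8 measured in both channels on all arrays. Its log2 ratio was -1.44, -1.41 and -1.68 in day 15 tumors 303, 313 and 318, against -1.58, -1.65 and -1.27 in day 10 tumors 302, 307 and 312. The days overlapped fully, and the difference was -0.01 (SE 0.17). Processed signals of Scx were 88.4, 90.3 and 47.0 in Cy5 and 460, 473 and 378 in Cy3 on the day 15 arrays. On the day 10 arrays they were 87.3, 53.7 and 90.6 in Cy5 and 500, 403 and 426 in Cy3. The mean ratio over the 6 tumors was -1.51 ± 0.16 (SD, n = 6).

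The other tendon and cartilage genes of the set were near or under the limit of detection. Tnmd had log2 ratios of 0.35, 0.41 and 0.70 in day 15 tumors 303, 313 and 318, against 0.46, 0.29 and 0.45 in day 10 tumors 302, 307 and 312, with signals in both dyes not well above background throughout. Chad was at -0.06, 0.13 and -0.02 in day 15 tumors 303, 313 and 318, against 0.01, 0.11 and 0.45 in day 10 tumors 302, 307 and 312. Neither gene entered the fit over all genes, which held the other 6.

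In the fit over all 15804 genes with limma, 0 of these 6 genes passed a Benjamini-Hochberg adjusted p of 0.05 between the days, where 0.0569% of all genes did (0.0127% higher and 0.0443% lower). Without adjustment, 4 of the 6 had a higher value at p under 0.05 (Itgbl1, Comp, Cpxm2 and Thbs4), against 2.44% of all genes (4.01% in either direction). Every day 15 tumor lay above every day 10 tumor in 4 of the 6, against 5.06% of all genes, and below in 0 of the 6, against 3.79%. A difference of at least 1 was found in 4 of the 6 (Itgbl1, Comp, Thbs4 and Cilp), against 1.98% of all genes. Since the genes were chosen with these values known, nothing is read from these counts. The plot of differences shows where the 6 genes lie among all genes.

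**Figure D3:**
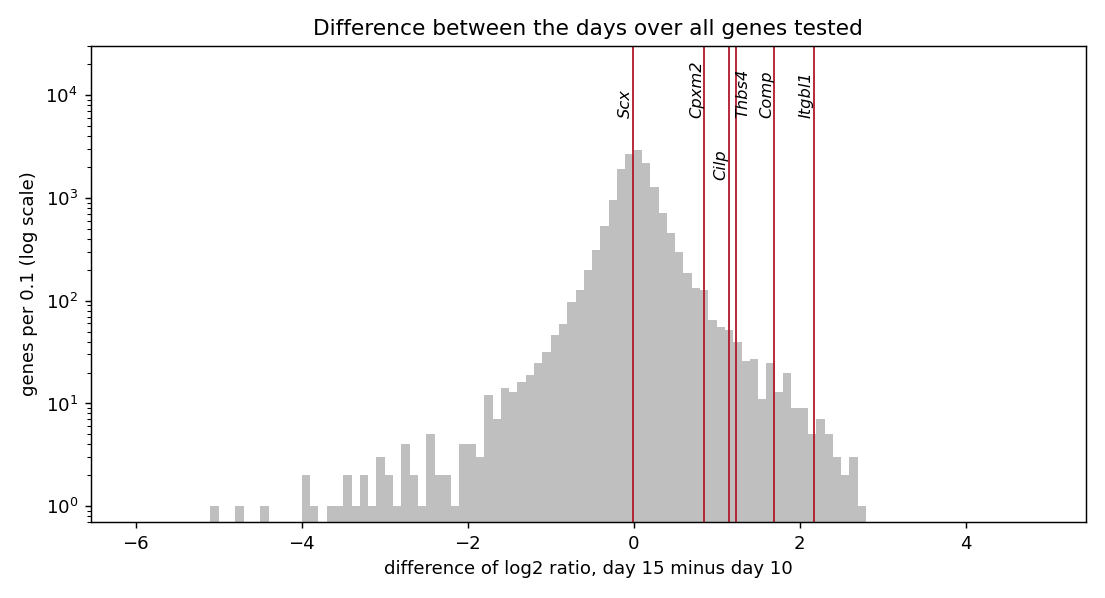
Number of genes (vertical axis, log scale) by difference of the log2 ratio between day 15 and day 10 tumors (horizontal axis), for all 15804 genes tested. Red lines mark the 6 genes tested, from Scx at -0.01 through Cpxm2 at 0.85, Cilp at 1.15, Thbs4 at 1.23 and Comp at 1.69 to Itgbl1 at 2.17.

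Against the reference, the genes split by direction. At an adjusted p of 0.05 and an absolute log2 ratio of at least 1, 3 of the 6 genes tested were called higher in tumor (Itgbl1, Thbs4 and Cilp), where 25.5% of all genes were. Scx was called lower, where 9.77% of all genes were. Itgbl1 was at least 4.50-fold and Thbs4 at least 7.60-fold higher in tumor, as bounds, since neither was well above background in the reference. The dimmer Thbs4 probe gave a bound of 1.74-fold. Cilp had a mean log2 ratio of 3.57 ± 0.95 (SD, n = 6). Comp, at 0.93, and Cpxm2, at 0.88, lay below a log2 ratio of 1. In the scanner's processed signals they were at 1.18 and 2.10, and 5 of the 6 genes were called higher.

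Other genes of tendon, cartilage and their signals were counted from lists chosen by their known roles, with earlier results of these data known. Of 17 further tendon and ligament genes, 15 were tested between the days, and 11 had higher and 4 lower values at day 15. Of these, 0 passed the limma adjusted p and 4 had an unadjusted p under 0.05 with a higher value. The median difference of the list was 0.58, beside 0.02 for all genes. It was 0.27 without tumor 312, where the spots of Egr2, Fmod, Ogn, Prg4 and Htra3 lay in the area of lost signal, and 0.46 with only that area left out. Fmod, the collagen-binding proteoglycan fibromodulin, had log2 ratios of 2.86, 3.04 and 3.53 in day 15 tumors 303, 313 and 318, against 1.32, 1.15 and -0.08 in day 10 tumors 302, 307 and 312. The difference was 2.34 (SE 0.40, limma adjusted p 0.370). The Fmod spot of tumor 312 lay in the area of lost signal, and without it the difference was 1.90. Col14a1, a collagen at the surface of fibrils, was higher by 0.86 and Dpt, which encodes dermatopontin, by 0.57, and neither passed. Mkx, a homeobox gene of tendon, was lower at day 15 by 0.49 in the mean and did not pass. Its log2 ratios were 1.14, -1.32 and 1.31 in day 15 tumors 303, 313 and 318. In day 10 tumors 302, 307 and 312 they were 0.66, 0.45 and 1.48, so the direction rested on tumor 313.

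Of these 15 tendon and ligament genes, 12 were called higher in tumor than in the reference and 0 lower, with a median log2 ratio of 3.35, beside 0.22 for all genes. Fibin, a secreted protein gene, had the highest at 5.78 and Col14a1 stood at 5.59. A second Col14a1 probe was at 0.03 and not well above background on any array, so the value rests on 1 of 2 probes. Fibin was not well above background in Cy3 on any array, so the size of its ratio is less secure. Kera and Angptl7 did not enter the fit.

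Of 25 cartilage genes, 14 were tested, and 11 were not: Sox5, Acan, Col9a3, Col10a1, Matn1, Matn3, Hapln1, Cnmd, Epyc, Snorc and Ucma. Among these are aggrecan, the main proteoglycan of cartilage, and the link protein gene Hapln1. Of the 14, 9 had higher and 5 lower values at day 15, and 0 passed the limma adjusted p. An unadjusted limma p under 0.05 was found for 1, Matn4 (0.98, SE 0.33), which was 0.61 without tumor 313. Matn4 was well above background in Cy5 on 3 arrays and in Cy3 on 0. Its log2 ratios were -0.04, -0.21 and 0.05 in day 10 tumors 302, 307 and 312. The median difference of the list was 0.20, and it was 0.03 without tumor 303, 0 with median centring and -0.08 in the tumor channel alone. The median of all genes was 0.02 in the main fit, -0.30 with median centring and -0.10 in the tumor channel alone. Sox9, the main transcription factor of chondrocytes, was at -1.0 (SE 0.51) and Pth1r at 0.53 (SE 0.26), and neither passed. Without tumor 313 they were at -0.43 and 0.34. Pth1r was at 0.10 with median centring.

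Against the reference, 6 of the 14 cartilage genes were called higher and 0 lower, with a median log2 ratio of 0.88. Prelp, a proteoglycan of connective tissue, was at 5.09 with one probe and at 0.39 with another, which was well above background on 1 array. Col2a1, the main collagen of cartilage, was at 5.41 with the probe that stood for it, but its other probes were at 0.79 and 0.04, the last not well above background on any array. The Col2a1 value therefore rests on 1 of 3 probes.

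Of the other thrombospondins, Thbs1, Thbs2 and Thbs3 had differences of 0.41, 0.32 and 0.50, and 0 of the 3 passed, and Thbs2 was at -0.12 with median centring in place of loess. Thbs1 was at 0.01 without tumor 318, 0.81 without tumor 313 and 0.04 with median centring. Thbs3 was at 0.34 without tumor 303, 0.33 without tumor 312 and 0.08 with median centring. The median of all genes was -0.30 with median centring, beside 0.02 in the main fit. Thbs2 had log2 ratios of 3.25, 3.55 and 3.39 in day 15 tumors 303, 313 and 318, against 3.19, 3.03 and 3.0 in day 10 tumors 302, 307 and 312. Thbs2 and Thbs3, at 3.24 and 2.55, were called higher in tumor than in the reference, while Thbs1, a platelet and stromal thrombospondin, was at 0.52. The other 2 Thbs1 probes, well above background on all arrays, were at -0.18 and -0.25, so the direction of Thbs1 differed between probes.

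TGF-beta ligands and targets had 6 higher and 5 lower values at day 15. Of 15 genes, 12 were tested, and 0 passed between the days, with 1 unadjusted p under 0.05 and a median difference of 0.07. Tgfb3 was higher by 0.64 (SE 0.25) in a fit that dropped its spot on the array of tumor 313, which carried an outlier mark. Tgfb3 was at 0.42 without tumor 312. Bmp4 was at -1.18 (SE 0.54), and at -0.56 without tumor 313, which was at -1.47 while the other tumors lay between 0.21 and 1.39. Against the reference, 5 were called higher, with Tgfbi at 5.19, and 1 lower, the connective tissue growth factor gene Ccn2 at -1.24.

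Lists of markers of other cells were counted in the same way. All 16 fibroblast genes had higher values at day 15, with 0 passing and 5 under an unadjusted p of 0.05, and a median difference of 0.49, which was 0.31 without tumor 312. Their summed processed Cy5 signal ranged over 650120 to 1720337 at day 15 and 554815 to 832703 at day 10. Of 7 smooth muscle and pericyte genes, 6 had higher values, 0 passed and the median difference was 0.77, with sums of 24153 to 30901 at day 15 and 18347 to 22730 at day 10. These sums did not overlap. With median centring, where the median of all genes was -0.30, the medians of these lists were 0.13 and 0.31. All 9 adipocyte genes tested had higher values, with 0 passing and a median difference of 1.16, and sums of 15952 to 471934 at day 15 and 59693 to 105645 at day 10. This median was 0.60 without tumor 313, 0.72 without tumor 303, 0.69 without tumor 312 and 2.02 without tumor 318, and 0.55 with median centring. Day 15 tumor 318, with a list median ratio of 0.86, lay below day 10 tumors 302 at 1.53, 307 at 2.66 and 312 at 1.01.

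Skeletal muscle genes went the other way. All 16 tested had lower values at day 15, 6 fell past the adjusted threshold, and the median difference was -3.31. With only probes well above background on all 6 arrays the median was -1.16 and 0 genes passed, since the 6 genes were not so on every array and left the fit. Their sums were 4231 to 14726 at day 15 and 39114 to 277667 at day 10. Itgbl1, Comp, Cpxm2, Thbs4 and Cilp had higher means at the day when the muscle genes were lower, while Scx differed by -0.01. A link between these differences and those of the muscle genes was not tested. Of 8 osteoblast markers, 5 were not tested, Sp7, Bglap, Ibsp, Dmp1 and Phex among them, and the other 3 had a median difference of -0.08, with sums of 596 to 1311 at day 15 and 803 to 1203 at day 10. The 3 skin epithelium genes tested of 7 had a median difference of 0.13 and the 10 hepatocyte and hepatoma genes one of -1.34, with 0 passing in either list. Without tumor 313 the hepatocyte and hepatoma median was 0.29, so its direction rested on that tumor. The part of these cells in the values of the 8 genes was not tested. The plot of lists shows each gene.

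**Figure D4:**
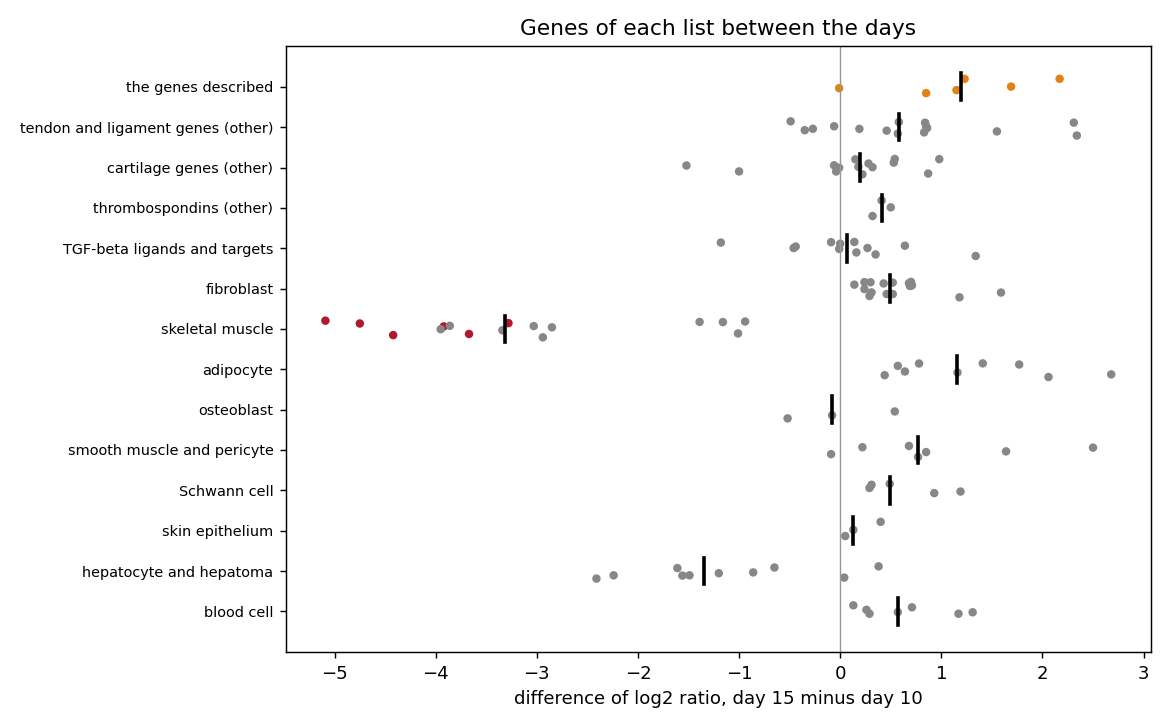
Difference of the log2 ratio between day 15 and day 10 tumors (horizontal axis) for each gene tested of each list (rows), with the 6 genes described in orange in the top row, genes past the limma adjusted threshold in red, all others in grey and the list median as a black bar. Passing genes are found only in the skeletal muscle row, whose median was -3.31, against medians of 0.58 and 0.20 in the tendon and cartilage rows.

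The genes most like the 6 over the tumors were sought by the Pearson correlation of their log2 ratios with the mean of the 6, each centred on its own mean. This mean was 0.44, 0.94 and 0.39 in day 15 tumors 303, 313 and 318, against -0.49, -0.86 and -0.42 in day 10 tumors 302, 307 and 312, so that tumors 313 and 307 were the extremes. The genes compared were 1684 outside the set, all well above background in Cy5 on all arrays with an SD of at least 0.5. Of these, the closest were Sox7 at 0.996, Gucy1a1 and Tmem273 at 0.983, Depp1 at 0.979 and Pcdh12 at 0.972. Next came Mylk at 0.966, Notch3 at 0.952 and Pik3r3 at 0.951. Most negative were Mthfd1l at -0.966, Acsbg1 and Ly6f, both at -0.963. Sox7 encodes a transcription factor of endothelial cells, Notch3 a receptor of vascular smooth muscle and Mylk the myosin light chain kinase. Sox7 itself had log2 ratios of 3.17, 3.59 and 3.11 in day 15 tumors 303, 313 and 318, against 2.42, 2.0 and 2.53 in day 10 tumors 302, 307 and 312. These correlations rest on 6 tumors that fall into the 2 days, and are a description of them.

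Taken singly, the genes had different closest neighbours. The closest to Itgbl1 was Iglv1, an immunoglobulin lambda gene, at 0.984, and the closest to Comp was Itgbl1 at 0.954. Cpxm2 lay closest to Tagln, which encodes the smooth muscle protein transgelin, at 0.993. Thbs4 lay closest to Spaar at 0.993 and Cilp to Cdh5, the endothelial cadherin, at 0.989. Scx reached no more than 0.873, with Hoxb6. Its SD over the tumors was 0.16, and only genes with an SD of at least 0.5 were compared. Genes as flat as Scx were thus left out, and nothing is read from its lower value.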

How the data were processed

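Gene expression was measured on 2-colour Agilent arrays in 3 day 15 and 3 day 10 tumors, 1 array per tumor. Groups were taken from the sample titles. The 8 genes, the lists, the tests and the naming rule were chosen with earlier results of these data known. Per the file headers and the submitters' processing notes, the deposited intensity values were made with Agilent Feature Extraction 9.1.3.1, whose processed intensity is background-subtracted, detrended and dye-normalized. Per the labels, Cy5 held tumor RNA, so the log10 ratio of the deposited files is tumor over reference, and the authors' value table differed from it by 0 at every spot. Other deposited columns hold flags per spot, and no other steps of the authors are given in the sources used here.

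Background correction of the mean intensities used normexp (limma 3.58.1, R 4.3.3, offset 50). Loess normalization within arrays followed, giving control spots and outlier spots a weight of 0. Outlier spots (45 to 71 per array) were left out and spots of a probe averaged. The offset pulls ratios of dim genes towards 0. Probes were named through a RefSeq table (GRCm38.p6): 23374 by accession, 6733 by symbol and 2919 by older symbol, with 8148 keeping the array's name. A gene was represented by its tested probe of highest mean signal. The comparison of days used the 23067 probes with Cy5 well above background in 3 or more tumors, and that of tumor with reference the 24244 probes so in either dye. Both were 2-sided limma tests (lmFit, eBayes), adjusted over probes by the Benjamini-Hochberg method, and the procedure was tested on simulated data. Named from the related lists were the up to 3 genes of smallest p between the days and the 2 of largest ratio to the reference. Mkx, Ccn2, Acan, Hapln1, Egr2, Ogn, Prg4, Htra3, the genes of marker lists and further probes were named after their values were seen. The p-values reflect only how far these samples differ within a day, which may be technical, the number of arrays limits the precision, and the comparison with the reference leaves out the spread between blood samples. Likeness was a Pearson correlation over the 6 tumors, and the 8 highest and 3 lowest genes were named, with 1 for each gene tested. Values of single channels were quantile normalized, and bounds used loess and Aquantile scaling, open to dye bias.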

Additional observations from a re-analysis of the deposited data

Results flagged for a closer look

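Tgfb2, among the TGF-beta ligands, had a log2 ratio of -0.40 in day 10 tumor 312, far from the other 5 tumors, which lay between 1.92 and 3.1. Its spot on that array lay in the area of lost signal. Without it the difference between day 15 and day 10 tumors was 0.42, against 1.34 with it. Some other listed genes with their spot in that area also had low values in tumor 312, and some did not. Ogn was at -0.17 there and at 5.08 to 5.98 in the other tumors, and Htra3 at 0.36 and at 4.18 to 4.92. Egr2 was at 4.54 in tumor 312 and at 3.98 to 5.29 in the other tumors, and Des at 2.46 and at 1.13 to 3.04. A gap like that of Tgfb2 is found by chance in about 0.05 of groups. It was sought in every gene tested of the set and in the listed genes named by rule, so a case among them can arise by chance.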

How the results depend on the processing

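Under all 15 alternatives, 0 of the 8 genes passed between the days, and 0 of the tendon, cartilage, thrombospondin and TGF-beta lists. The marker lists were not part of this count, and 6 skeletal muscle genes passed in the main fit. Itgbl1 (1.69 to 2.26), Comp (1.25 to 2.09), Cpxm2 (0.72 to 2.0), Thbs4 (0.81 to 1.59) and Cilp (0.47 to 1.44) kept a higher mean at day 15 in every alternative that could give a value. Scx lay between -0.33 and 0.11, and its lowest value came with median centring, which moved the median difference of all genes to -0.30 from 0.02. The median of the tumor channel alone was -0.10. With a signal above background on all 6 arrays, Comp and Cpxm2 could not be fitted and 2 genes had days apart. Over all genes, 2 were higher and 7 lower between the days. The number higher was 1 with median centring, with the scanner's processed signals, with the authors' value table and with all 6 arrays above background, where 0 were lower. In the tumor channel alone it was 0 higher and 0 lower. Leaving out 1 tumor gave 0 to 6 higher and 3 to 24 lower, the last without tumor 307. Without tumors 302 and 312, 0 were higher, and without tumor 318, 6 were. Against the reference, 4159 genes were higher and 1594 lower (72.3% higher). Median centring gave 3239 and 4595 (41.3%), the scanner's processed signals 4448 and 3232 (57.9%) and the authors' values 4453 and 3230 (58.0%). Of the 8 genes, 5 were called higher with the processed signals and with the value table. In the tendon, cartilage, thrombospondin and TGF-beta lists, genes called lower numbered 5 with median centring. They numbered 2 with the processed signals, 2 with the value table, and 1 to 2 with 1 tumor left out. Thbs2 turned to -0.12 with median centring, above the all-gene median of that setting. The cause of the other moves was not tested. Signal over background limits Tnmd, Chad and Cpxm2 at day 10. No paired analysis was possible because the tumor numbers are not shared between the days.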

Other observations

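Of the smooth muscle and pericyte genes, which include Tagln, 5 of 7 had every day 15 tumor above every day 10 tumor, where 5.06% of all genes had. In mean log2 ratio, Tagln was higher by 1.64, Cnn1 (calponin) by 2.5, Rgs5 by 0.85 and Myh11 by 0.77. Mcam was higher by 0.68 and Cspg4 by 0.22, while Acta2 was at -0.09. Cnn1 had log2 ratios of 4.39, 1.86 and 0.94 in day 15 tumors 303, 313 and 318. In day 10 tumors 302, 307 and 312 it was at 0.16, -0.26 and -0.2, and it was well above background in Cy5 on 4 arrays. None of the 7 passed the limma adjusted p, and 4 had an unadjusted p under 0.05. All 5 Schwann cell genes tested had higher values at day 15, with a median of 0.49, which was 0.92 without tumor 318, and 0 passing.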
